A study of Mus musculus with 38 samples.

Results

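The change in gene expression of mouse embryonic stem cells (mESCs) was followed gene by gene in 2 assays. The interval was 24 h to 36 h of retinoic acid (RA) exposure, labeled here as the exit from pluripotency. The paper hypothesized that a wave of bulk changes in this interval marked the exit. It placed the exit itself in the window from 24 h to 48 h, of which the interval covers only a part. A gene was counted as a member if its level moved in the same direction from 24 h to 36 h in bulk RNA-seq and in SCRB-seq, a single-cell method, and the ribosomal RNA precursor Rn45s was left out. Of 23452 genes in both tables, 12041 had enough counts to be tested, and 6458 of these (53.6%) moved in the same direction, 3077 up and 3381 down, while 5583 moved in opposite directions. The narrower set described below, called the 108 genes, moved at least 1.5-fold in the same direction in both assays and had at least 50 counted molecules in the larger library of each. The genes were thus chosen by their values at 24 h and 36 h, and these values describe them.

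All groups were E14 cells, an established mESC line. At 0 h they grew in 2i/L, a medium in which a MEK inhibitor, a GSK3 inhibitor and the cytokine LIF hold mESCs in the pluripotent state, and they had spent at least 2 passages there. At every other time they were in N2B27 medium with 0.25 µM RA and without the inhibitors and LIF, and the medium was exchanged once, at 48 h. Bulk libraries were made from whole cultures, and SCRB-seq from single cells sorted by a DNA stain into the 384 wells of 1 plate per time point. Both assays count molecules at the 3′ end of transcripts by unique molecular identifiers (UMIs). Each time point had 1 library per assay, with a second bulk library at 0 h that was kept out of the main test, so that the 2 assays stood in for replicates. The methods count SCRB-seq as 1 replicate of the differentiation and do not say whether the bulk cultures were another, so the spread between libraries is partly a difference between methods.

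Naive pluripotency is held by a network of transcription factors, among them Klf4, Esrrb, Tbx3 and Nanog, that is sustained by LIF signaling and by the inhibition of MEK and GSK3. When these are withdrawn, the network is dismantled before lineage genes come on. RA enters cells, binds RA receptors on DNA and activates nearby genes directly, among them the 3′ members of the Hox clusters and the enzymes that break RA down.

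The bulk libraries held 2004887 UMIs at 24 h and 1650198 at 36 h. The SCRB-seq plates held 290 wells with more than 2000 UMIs at 24 h and 334 at 36 h, with medians of 3559.5 and 4723 UMIs per well, and the UMIs of these wells were summed to 1446956 and 2321682. All 9 plates use the same 384 well names, which are positions on a plate, and no well of the 24 h plate was identical to one of the 36 h plate. The 10 deepest wells held 22.4% and 21% of the summed UMIs. Levels are UMI counts scaled to the same library total (CPM), and the ranges printed in parentheses after a fold are exact 95% intervals, which cover counting error only.

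The label of the interval names 3 marker genes, which are described first. Hoxb2, a homeobox gene of the hindbrain and a target of RA, lies at chr11:96350525-96354012 of GRCm38. It rose from 139.7 to 638 CPM in bulk and 7.62 to 71.2 in SCRB-seq, which is 4.57-fold (4.00 to 5.23) and 9.35-fold (5.09 to 19.1) higher. Zfp42, a zinc finger gene also known as Rex1 that marks naive pluripotency, lies at chr8:43295063-43306980. It went from 495 to 181 CPM in bulk and 510.5 to 159 in SCRB-seq, which is 2.74-fold (2.40 to 3.13) and 3.21-fold (2.83 to 3.65) lower. Fgf4, the growth factor through which mESCs signal to themselves to leave the naive state, went from 10.97 to 2.42 CPM in bulk and 65.1 to 23.3 in SCRB-seq. The bulk value of Fgf4 rests on 22 and 4 UMIs, and the gene is therefore outside the 108 genes. All 3 markers moved in the direction of the label in both assays. These are values that the rule used, so they describe the label and do not check it. In bulk samples, fewer cells that express a gene cannot be told apart from less of its RNA per cell.

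Of the genes tested, 10 (0.083%) rose from 24 h to 36 h and 0 fell, by edgeR's quasi-likelihood test with Benjamini-Hochberg adjustment over 18 libraries, with the assay as a block. At an unadjusted p under 0.05 the same test had 387 genes higher and 281 lower, and DESeq2 called 7 higher, without Hoxb2, Dcdc2c, Gm20765 and Gm7102, and 1 lower, Klf4. The smallest adjusted p of a lower gene was 0.052, for the naive pluripotency factor Klf4. The 10 genes were Hoxb2, the milk protein gene Csn3, the arginase gene Arg1, the neuroectoderm gene Prtg, the laminin gene Lamb1 and the genes AF067061, Dcdc2c, Gm20765, Gm20767 and Gm7102. Hoxb2 had a log2 fold change 2.37 ± 0.42 (SE), adjusted p = 0.0276 by edgeR. For Zfp42 edgeR gave a log2 fold change -1.57 ± 0.38 (SE), adjusted p = 0.134, and for Fgf4 a log2 fold change -1.57 ± 0.64 (SE), adjusted p = 0.822, so neither passed. Zfp42 was called lower by edgeR with no filter, with wells of equal weight and with only the 4 libraries of 24 h and 36 h. Most alternative fits did not call Zfp42, and none called Fgf4. The count of 10 called genes depended on single libraries. Without the SCRB-seq library of 24 h edgeR called 0 genes higher, without that of 36 h 2 (Csn3 and Hoxb2), without the bulk library of 24 h 9, and without that of 36 h 20. Hoxb2 lost its call without the SCRB-seq library of 24 h (adjusted p = 0.95 by edgeR), without the bulk library of 36 h (0.39), with no assay block (1) and by DESeq2 (0.358). Its adjusted p ranged from 6.81e-11 to 1 over 12 alternatives, with a call in 8.

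Among the 3372 genes with at least 50 UMIs in each assay, 29 (0.86%) were at least 1.5-fold higher at 36 h in both assays and 79 (2.34%) were at least 1.5-fold lower in both. Other genes were past 1.5-fold in opposite directions, 5 of them higher in bulk and 25 higher in SCRB-seq. Of the 108 genes, 76 had an unadjusted edgeR p under 0.05, beside 668 of all 12041 tested genes. The same libraries chose the genes, so this share largely follows from the choice and is no separate check. As a gauge of library noise, 26.5% of 4099 genes differed at least 1.5-fold between both mESC bulk libraries at 0 h. These genes had at least 50 UMIs in the larger of those libraries, with no minimum in SCRB-seq. Of the 3372 genes, a different set, 10.6% differed as much between bulk at 24 h and 36 h and 24.8% between the SCRB-seq plates. A 1.5-fold change in bulk is thus within the spread of the mESC pair, and SCRB-seq has no such pair. At the threshold, Cyp26a1 was just inside with log2 ratios of 0.65 and 0.89 and Carkd just outside with 0.68 and 0.58. Among lower genes Aplp1 was inside with -1.45 and -0.59 and Pnp outside with -0.69 and -0.58.

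**Figure D1:**
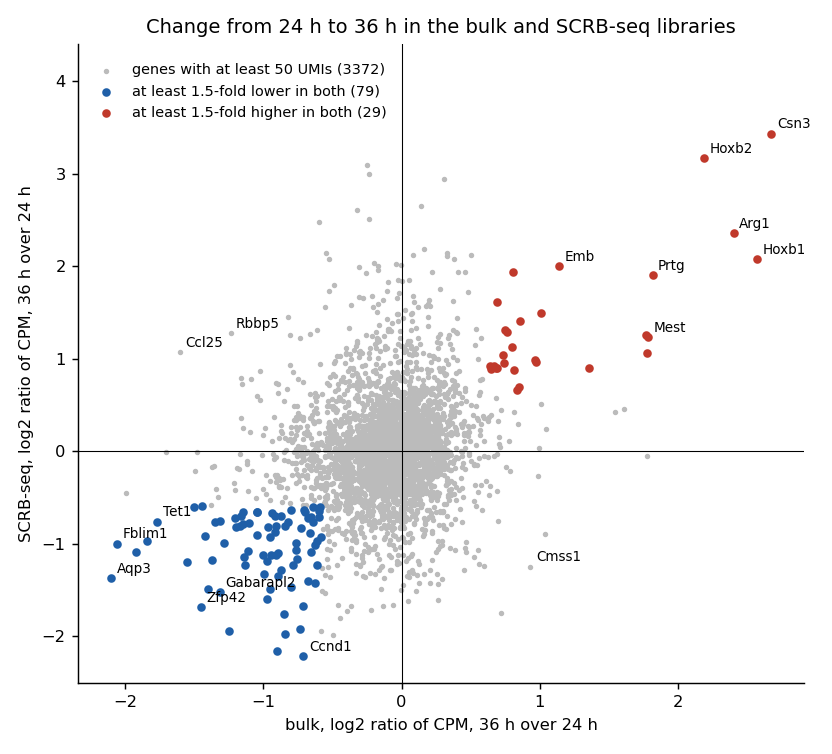
Log2 ratio of CPM at 36 h over 24 h in bulk (x axis) and in SCRB-seq (y axis) for the 3372 genes with at least 50 UMIs in each assay, 1 point per gene. Red points are the 29 genes at least 1.5-fold higher in both assays, with Csn3, Hoxb2, Hoxb1 and Arg1 farthest out, and blue points the 79 genes at least 1.5-fold lower in both.

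Genes of the pluripotent state were mostly lower at 36 h. Of 13 naive pluripotency transcription factors tested, 10 were lower in both assays, 1 was higher (Gbx2) and 2 moved in opposite directions, and edgeR called 0 of them. Their median log2 ratio was -0.94 in bulk and -0.68 in SCRB-seq, beside -0.05 and 0.02 over all tested genes. Klf4, a Krüppel-like factor, went from 22.9 to 7.88 CPM in bulk and 129.5 to 30.6 in SCRB-seq, and its edgeR adjusted p was 0.0520. DESeq2 called Klf4 lower, as did edgeR with library totals, with no filter, with wells of equal weight, with only the 4 libraries of 24 h and 36 h and without the bulk library of 24 h. The orphan receptor gene Esrrb went from 17.96 to 4.85 CPM in bulk and 112 to 26.8 in SCRB-seq (edgeR adjusted p = 0.125). The T-box factor Tbx3, together with Zfp42 one of the 108 genes, went from 53.4 to 28.5 CPM in bulk and 115 to 53.5 in SCRB-seq. The homeobox factor Nanog, counted among the 10, hardly differed, with 382 and 367 CPM in bulk and 794 and 792 in SCRB-seq, ratios of 0.960-fold (0.861 to 1.07) and 0.997-fold (0.926 to 1.07). In the mESC state at 0 h the Nanog level had been lower, at 163 CPM in bulk and 366 in SCRB-seq. Summed over the 13 genes, the level was 1169 CPM at 24 h and 674 at 36 h in bulk and 1930 and 1308 in SCRB-seq.

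Of 7 core pluripotency factors, which are shared by naive and later pluripotent cells, 6 were lower in both assays and 1 higher. Of the 5 with at least 50 UMIs in each assay, 0 reached 1.5-fold in both. Pou5f1 (Oct4) went from 233 to 173 CPM in bulk and 346 to 188 in SCRB-seq, and Sox2, its partner on DNA, from 45.9 to 24.2 CPM in bulk and 197 to 158 in SCRB-seq. Lin28a, an RNA-binding protein that blocks let-7 maturation, was the one that moved up, from 52.9 to 69.7 CPM in bulk and 56.1 to 101 in SCRB-seq. EdgeR called 0 of these 7.

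Of 14 other mESC genes, 13 were lower in both assays and 1 moved in opposite directions. Tdh, Spp1 and L1td1 were among the 108 genes. Tdh, a threonine dehydrogenase on which mESC metabolism depends, had 576 CPM at 0 h in bulk, 182 at 12 h, 24.9 at 24 h and 12.7 at 36 h, so most of its decrease came before the interval. L1td1, a transposon-derived RNA-binding protein, had 609.6 CPM at 12 h and 591 at 24 h and then went to 266 at 36 h, with 554 and 321 in SCRB-seq. Dppa5a, the most abundant of the list in UMIs, went from 7578 to 6227 CPM in bulk and 3215 to 2928 in SCRB-seq, under 1.5-fold in each assay.

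The promoters of the genes that moved down were searched for the octamer ATGCAAAT, the motif bound by Pou5f1, on either strand in the 250 bases upstream of the start (RefSeq, GRCm38.p6). Some genes have more than 1 start in the table. A promoter was found for 62 of 80 genes (the 79 and Fgf4) and for 20 of the 29 that moved up. The octamer was present in Zfp42, Spp1 and Wwc2 among the former and in Tspan13 among the latter, and in 1.6% of all 32851 promoters. In Spp1 it lies before a second start within the gene and not before the first one. The promoter of Zfp42 (chr8:43307010-43307259, minus strand), the naive marker of the interval, is shown 5′ to 3′ with the reverse complement of the octamer in capitals.
Zfp42: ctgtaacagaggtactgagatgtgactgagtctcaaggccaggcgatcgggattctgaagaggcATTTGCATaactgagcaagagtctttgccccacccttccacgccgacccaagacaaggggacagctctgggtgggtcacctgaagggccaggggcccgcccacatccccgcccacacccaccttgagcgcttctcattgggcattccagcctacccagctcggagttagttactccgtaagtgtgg
In Zfp42 the motif lies 186 to 179 bases before the start, on the opposite strand. The STAT element TTCNNNGAA was present in Rab11a and Ftsj1 and in 7.02% of all promoters, and the Esrrb element TCAAGGTCA in none of these promoters, against 0.387% of all. These matches are a description of the letters in this window.

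The other genes with the largest decreases had varied functions. Aqp3, a water and glycerol channel at chr4:41092722-41098183, went from 224 to 52.1 CPM in bulk and 164 to 63.02 in SCRB-seq, which is 4.31-fold (3.41 to 5.49) and 2.59-fold (2.10 to 3.21) lower (edgeR adjusted p = 0.165). Eras, the Ras gene of embryonic stem cells, went from 67.8 to 25.4 CPM in bulk and 70.7 to 25.04 in SCRB-seq. Gabarapl2, an autophagosome protein of the Atg8 family, went from 698 to 280 CPM in bulk and 409 to 142 in SCRB-seq (edgeR adjusted p = 0.197). Each of these 3 genes was lower at 36 h than at 24 h in both assays, and none passed the test. Gm7325 went from 109 to 45.5 CPM in bulk and 56.8 to 14.7 in SCRB-seq. The adenylate kinase Ak7 went from 43.4 to 14.5 CPM in bulk and 34.6 to 15.1 in SCRB-seq, and the lipid phosphatase Acp6 from 112 to 43.03 CPM in bulk and 159 to 70.4 in SCRB-seq. The Groucho-related corepressor Aes went from 48.4 to 21.8 CPM in bulk and 114 to 51.4 in SCRB-seq. All 4 had their higher library at 24 h in each assay. Fblim1, a LIM protein of cell adhesions, went from 36.4 to 8.48 CPM in bulk and 138 to 69.1 in SCRB-seq. Mybl2 (B-Myb), a cell cycle transcription factor, went from 44.9 to 18.2 CPM in bulk and 170.4 to 85.9 in SCRB-seq. The unconventional myosin Myo1f went from 67.3 to 17.6 CPM in bulk and 90.04 to 42.3 in SCRB-seq. The steroid dehydrogenase Hsd17b14, the cytokine signal transducer Stat6, the RNA-binding protein Rbm48 and Poldip2, a partner of DNA polymerase delta, were between 2.02-fold (1.29 to 3.22) and 2.22-fold (1.40 to 3.62) lower in bulk and between 2.12-fold (1.54 to 2.92) and 2.52-fold (1.70 to 3.76) lower in SCRB-seq.

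Further lists held single members of the 108 genes. Of 6 DNA methylation enzymes, Tet1 and Tet2, which oxidize methylated cytosine, were lower in both assays. Tet1 went from 99.8 to 29.1 CPM in bulk and 386 to 228 in SCRB-seq (edgeR adjusted p = 0.291) and Tet2 from 25.9 to 15.2 CPM in bulk and 139.9 to 70.4 in SCRB-seq. Dnmt3l and Tet3 were higher in both assays and Dnmt1 and Uhrf1 moved in opposite directions. Ccnd1, cyclin D1 of the G1 phase, went from 37.9 to 23.03 CPM in bulk and 56.8 to 12.1 in SCRB-seq and was at 76.4 and 121 CPM at 72 h. Cdh1, E-cadherin, went from 60.9 to 30.9 CPM in bulk and 131 to 74.2 in SCRB-seq. Of 14 mitosis genes, 0 were higher in both assays, 7 lower and 7 opposite, and of 12 S phase genes 1 was higher, 5 lower and 6 opposite. EdgeR called none of the genes of these lists.

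**Figure D2:**
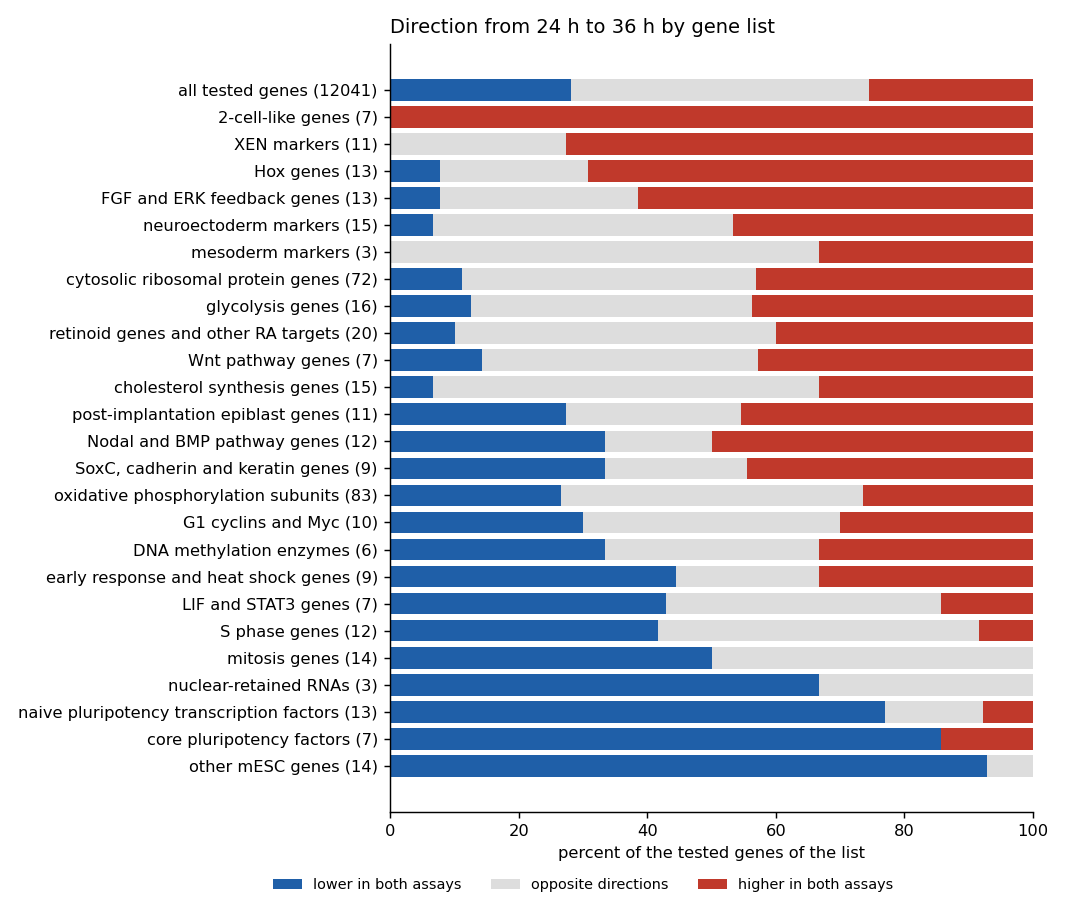
Share of the tested genes of each list (number in parentheses) that were lower in both assays (blue), higher in both (red) or moved in opposite directions (grey) from 24 h to 36 h, with all 12041 tested genes at the top. Lists of pluripotency genes are mostly blue (10 of 13, 6 of 7 and 13 of 14 lower), and 2-cell-like genes, XEN markers and Hox genes mostly red (7 of 7, 8 of 11 and 9 of 13 higher). The counts include genes with few UMIs. At least 50 UMIs in each assay were reached by 3, 5 and 10 genes of the pluripotency lists. In the other 3 lists 0, 2 and 4 genes reached them.

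Hox genes were mostly higher at 36 h. Of 13 Hox genes tested, 9 were higher in both assays, 1 lower (Hoxa4) and 3 opposite, and Hoxb2 was the one edgeR called. Their median log2 ratio was 0.84 in bulk and 0.87 in SCRB-seq. Hoxb1, the neighbour of Hoxb2 at the 3′ end of its cluster, went from 9.98 to 60.6 CPM in bulk and 19.4 to 82.9 in SCRB-seq, which is 6.08-fold (3.73 to 10.4) and 4.27-fold (2.87 to 6.60) higher (edgeR adjusted p = 0.128). Its level later declined, to 1.54 CPM in bulk and 0 in SCRB-seq at 96 h. Hoxa5 had 32.9 and 41.8 CPM in bulk and 33.9 and 41.9 in SCRB-seq, less than 1.5-fold apart. Hoxb5 went from 8 to 32 UMIs in bulk and from 2 to 53 in SCRB-seq, and Hoxb6 from 1 to 33 and from 0 to 13, below the minimum for the 108 genes.

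Of 20 retinoid genes and other RA targets, 8 were higher in both assays, 2 lower and 10 opposite, and edgeR called 0. The enzymes and carriers were Cyp26a1, which degrades RA, Dhrs3, which reduces retinaldehyde back to retinol, and Stra6, the membrane receptor for retinol uptake. Cyp26a1 went from 40.9 to 64.2 CPM in bulk and 20.1 to 37.5 in SCRB-seq, Dhrs3 from 61.4 to 108 CPM in bulk and 39.5 to 72.95 in SCRB-seq and Stra6 from 33.9 to 54.5 CPM in bulk and 16.6 to 31.5 in SCRB-seq. At 12 h the bulk levels of the 3 genes were 5.29, 24.3 and 6.62 CPM, so that each was already higher at 24 h than at 12 h. Meis2, a homeodomain partner of Hox proteins, went from 24.9 to 50.3 CPM in bulk and 33.9 to 96.3 in SCRB-seq, and its relative Meis1 from 8.48 to 18.2 CPM in bulk and 7.62 to 18.1 in SCRB-seq (17 to 30 UMIs in bulk). Rarb, the receptor gene that RA itself induces, had 9 and 15 UMIs in bulk and 0 and 27 in SCRB-seq.

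The promoter of Cyp26a1 (chr19:37697558-37697807, plus strand, GRCm38.p6) holds the letters of an RA receptor element and is shown 5′ to 3′ with the match, on the opposite strand, in capitals.
Cyp26a1: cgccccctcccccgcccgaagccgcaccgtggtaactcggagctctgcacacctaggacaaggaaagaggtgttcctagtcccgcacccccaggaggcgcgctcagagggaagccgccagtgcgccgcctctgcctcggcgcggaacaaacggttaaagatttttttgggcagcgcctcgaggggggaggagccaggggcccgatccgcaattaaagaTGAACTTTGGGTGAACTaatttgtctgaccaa
The search took a pair of 6-base repeats, each with the letters AGGTCA or the variant AGTTCA, the variant GGTTCA or the variant GGGTCA, 5 bases apart, on both strands. The match lies 32 to 16 bases before the start, and Cyp26a1 was the only one of the 20 higher and 62 lower genes with a promoter to hold it, against 0.0883% of all promoters. With the repeats 2 bases apart, 0 of these genes had a match, against 0.174% of all. Hoxb2 and Arg1 had no entry in the table used here.

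The largest increases outside the Hox clusters were in genes of mixed function. Csn3, kappa-casein, at chr5:87925579-87932665, rose from 12.97 to 84.2 CPM in bulk and 6.23 to 70.8 in SCRB-seq, which is 6.50-fold (4.25 to 10.3) and 11.4-fold (5.84 to 25.3) higher, with a log2 fold change 2.99 ± 0.50 (SE), adjusted p = 0.0250 by edgeR. It reached 113 and 187 CPM at 48 h and was down to 9.82 and 7.22 at 72 h, a pulse that began in the interval. Arg1, which splits arginine into ornithine and urea, rose from 7.48 to 40.6 CPM in bulk and 4.85 to 26.3 in SCRB-seq, 5.43-fold (3.07 to 10.2) and 5.43-fold (2.48 to 14.1) higher, with a log2 fold change 2.43 ± 0.47 (SE), adjusted p = 0.0499 by edgeR, next to the threshold of 0.05. In SCRB-seq 1 well held 14.8% of the Arg1 UMIs at 36 h. Prtg (protogenin), a cell surface protein of the early neural plate, rose from 9.98 to 35.8 CPM in bulk and 41.6 to 156 in SCRB-seq (log2 fold change 1.91 ± 0.33 (SE), adjusted p = 0.0250 by edgeR). Unlike Csn3, Prtg was higher still later, at 154 and 1001 CPM at 72 h. Without the SCRB-seq library of 24 h edgeR called none of these 3 genes, and the adjusted p was 0.95 for Csn3 and Prtg and 1 for Arg1. Arg1 also lost its call without the bulk library of 24 h (adjusted p = 0.0911 by edgeR) or 36 h (0.345) and without the SCRB-seq library of 36 h (0.0999). Csn3 also lost it without bulk at 36 h (adjusted p = 0.103 by edgeR), and Prtg without bulk at 24 h (0.0565) and without SCRB-seq at 36 h (0.255).

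**Figure D3:**
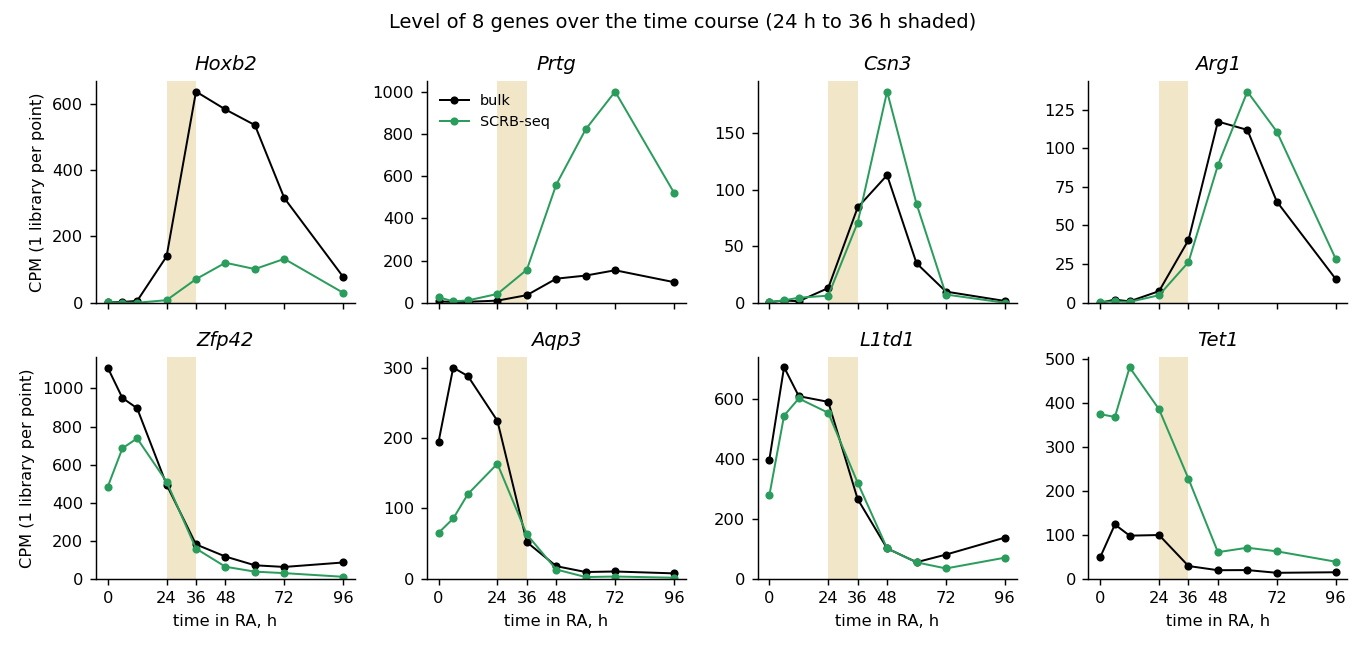
CPM (y axis, linear, own scale per panel) against time in RA (x axis, h) for 4 genes that moved up and 4 that moved down, with bulk in black and SCRB-seq in green, 1 library per point and the interval from 24 h to 36 h shaded. Csn3 reached its highest level at 48 h and Zfp42 was lower at 36 h than at 24 h in both assays.

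Several further genes moved up, none with a call by edgeR. Mest, an imprinted gene expressed from the paternal copy, went from 63.4 to 219 CPM in bulk and 74.1 to 175 in SCRB-seq (edgeR adjusted p = 0.134), and Copg2, a coatomer subunit, from 65.8 to 111 CPM in bulk and 35.3 to 88.1 in SCRB-seq. The genes lie on opposite strands and share 912 exon bases, so without strand their UMIs cannot be fully told apart. Emb (embigin), a chaperone of monocarboxylate transporters, went from 27.4 to 60.6 CPM in bulk and 12.5 to 50.9 in SCRB-seq (edgeR adjusted p = 0.0950). Slc2a1, the glucose transporter Glut1, went from 113 to 221 CPM in bulk and 275 to 544 in SCRB-seq and on to 522 and 1443 CPM at 48 h. It was the one member of a list of 16 glycolysis genes that was 1.5-fold higher in both assays, and Ldhb the one that was 1.5-fold lower, from 304 to 161 CPM in bulk and 112 to 69.1 in SCRB-seq, with 7 of the 16 higher, 2 lower and 7 opposite. The carbonic anhydrase Car3 went from 15.96 to 55.1 CPM in bulk and 11.8 to 25.04 in SCRB-seq. The fatty acid carrier Fabp5 went from 30.9 to 79.4 CPM in bulk and 20.1 to 37.99 in SCRB-seq. The tetraspanin Tspan13 went from 19.9 to 36.4 CPM in bulk and 14.6 to 39.3 in SCRB-seq, and Pigf, of GPI anchor synthesis, from 17.5 to 34.5 CPM in bulk and 11.1 to 22.01 in SCRB-seq. All of these had their higher library at 36 h in each assay. Of 15 cholesterol synthesis genes 5 were higher, 1 lower and 9 opposite, with Sc5d among the 29.

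Lefty1, a secreted inhibitor of Nodal, went from 18.4 to 63.6 CPM in bulk and 13.2 to 31.9 in SCRB-seq (edgeR adjusted p = 0.944). By 48 h it was at 2.85 CPM in bulk and 34.3 in SCRB-seq, so the assays parted after the interval. Its levels at 0 h also differed between assays, with 0.876 and 167 CPM. Of 12 Nodal and BMP pathway genes, 6 were higher, 4 lower and 2 opposite. Of 13 FGF and ERK feedback genes, a list that also holds FGF receptors, 8 were higher in both assays, 1 lower and 4 opposite. Their median log2 ratio was 0.28 in bulk and 1.62 in SCRB-seq. Only 2 of them had at least 50 UMIs in each assay, 1 higher and 1 opposite, with medians of -0.205 and 0.453. The feedback inhibitor Spry2 went from 21 to 30 UMIs in bulk and from 18 to 91 in SCRB-seq, and Dusp6, the ERK phosphatase, from 74.8 to 90.3 CPM in bulk and 75.5 to 124 in SCRB-seq. EdgeR called 0 genes of either list.

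Markers of the later lineages differed in level in the interval, with the highest summed level in neuroectoderm markers. XEN cells are the in vitro counterpart of the extraembryonic endoderm. Of 11 XEN markers, 8 were higher at 36 h in both assays, 0 lower and 3 opposite. Only 2 of the 11 had at least 50 UMIs in each assay, and both were higher. Lamb1, a laminin chain of the basement membrane that XEN cells secrete, rose from 8.48 to 22.4 CPM in bulk and 4.16 to 34.96 in SCRB-seq, with a log2 fold change 2.17 ± 0.40 (SE), adjusted p = 0.0322 by edgeR, on 17 and 37 UMIs in bulk. It lost the call without the SCRB-seq library of 24 h (adjusted p = 1 by edgeR) and without that of 36 h (0.61). Gata6, the factor that specifies primitive endoderm, had 2 and 7 UMIs in bulk and 10 and 101 in SCRB-seq (edgeR adjusted p = 0.197), and Sox17 had 1 and 5 and 1 and 22. Summed over the 11 genes, the level was 195 and 245 CPM in bulk and 125 and 294 in SCRB-seq. Of 15 neuroectoderm markers 7 were higher, 1 lower (Tubb3, neuronal tubulin) and 7 opposite, and their summed level went from 534 to 976 CPM in bulk and from 906 to 1077 in SCRB-seq. Of 6 mesoderm markers 3 were tested, with 1 higher and 2 opposite, and their sum was 0 and 4.85 CPM in bulk and 5.54 and 11.2 in SCRB-seq. Of 11 post-implantation epiblast genes tested, 5 were higher, 3 lower and 3 opposite. The 3 with at least 50 UMIs in each assay were lower in both. Summed over all 14 genes of the list, the level was 297 and 232 CPM in bulk and 652 and 656 in SCRB-seq.

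The remaining lists had no call by edgeR. Of 72 cytosolic ribosomal protein genes 31 were higher, 8 lower and 33 opposite, and of 83 subunits of oxidative phosphorylation 22 were higher, 22 lower and 39 opposite. Of 10 G1 cyclins and Myc genes, the list of Ccnd1, 3 were higher, 3 lower and 4 opposite. LIF and STAT3 genes had 1 higher, 3 lower and 3 opposite of 7, and Wnt pathway genes, the list of Cdh1, 3, 1 and 3 of 7. Early response and heat shock genes had 3, 4 and 2 of 9, SoxC, cadherin and keratin genes 4, 3 and 2 of 9, and nuclear-retained RNAs 0, 2 and 1 of 3.

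Among the genes that edgeR called was a set of less characterized ones. These genes, AF067061, Dcdc2c, Gm20765, Gm20767 and Gm7102, were below 50 UMIs in bulk and rose in SCRB-seq by 7.33-fold (6.11 to 8.86) for Dcdc2c and 21.6-fold (9.76 to 59.5) for AF067061. Dcdc2c rose from 6.98 to 20.6 CPM in bulk and 87.97 to 645 in SCRB-seq, with a log2 fold change 2.47 ± 0.49 (SE), adjusted p = 0.0499 by edgeR, and Gm7102 from 12.97 to 28.5 CPM in bulk and 81.7 to 597 in SCRB-seq. Each of the 5 lost its call without the SCRB-seq library of 24 h, since edgeR then called 0 genes. They have close copies in the genome. Gm20765 is identical to Gm6763 over 1246 bases, AF067061 and Gm20767 share 95.02% over 883 bases and Dcdc2c and Gm7102 share 97.15% over 491, so the split of UMIs between them is uncertain. Gm6763 is on the list of 2-cell-like genes, which mark a rare state in mESC cultures that resembles the 2-cell embryo (Zscan4 and Tcstv genes and others), and all 7 genes of that list were higher at 36 h in both assays. Their sum went from 12.97 to 68.5 CPM in bulk and from 45.7 to 446 in SCRB-seq. Of the 7 genes, 0 had at least 50 UMIs in each assay.

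The 2-cell-like UMIs were spread unevenly over the wells. At 24 h the 7 genes had 66 UMIs, in 27 of 290 wells, and 2 wells held 10 or more. At 36 h they had 1034 UMIs, in 140 of 334 wells, and 18 wells held 10 or more. The 3 wells with most of them held 38.8% of the list's UMIs and 47.6% of the UMIs of the 5 called genes. They held 1.22% of all UMIs of the plate. Of the UMIs of the 5 genes, 89.4% came from wells with at least 1 UMI of the list, whose share of all UMIs was not computed. List genes are close copies of called ones, Gm6763 of Gm20765 and Tcstv1 of AF067061 (91.85% over 1178 bases) and Gm20767 (91.48% over 880). UMIs may thus be split between list and called genes, so their shared wells are no separate evidence. Without those 3 wells at each time, the log2 ratio of 36 h over 24 h in SCRB-seq was 2.47 for Dcdc2c, 2.47 for Gm7102, 3.07 for Gm20765 and 2.39 for Gm20767. AF067061 then had 0 UMIs at 24 h and 116 at 36 h. Single wells thus held much of the level of these genes and not all of the change.

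In single cells, the members could be followed well by well. Each well was thinned to 2000 UMIs, which left 276 wells at 24 h and 330 at 36 h, with medians of 3336 and 4498 UMIs before thinning. The intervals are exact binomial (Clopper-Pearson) and cover counting error only, and wells of 1 plate are not replicates. Hoxb2 had a UMI in 3 of 276 wells (1.09%, 0.225 to 3.14) at 24 h, in 41 of 330 wells (12.4%, 9.07 to 16.5) at 36 h and in 52 of 274 wells (19%, 14.5 to 24.1) at 48 h. In mESCs, which should lack it, Hoxb2 had a UMI in 0 of 267 wells (0%, 0 to 1.37). Zfp42 had a UMI in 144 of 276 wells (52.2%, 46.1 to 58.2) at 24 h, in 65 of 330 wells (19.7%, 15.5 to 24.4) at 36 h and in 20 of 274 wells (7.30%, 4.52 to 11) at 48 h. At 96 h, after differentiation, it was found in 2 of 132 wells (1.52%, 0.184 to 5.37). Fgf4 had a UMI in 26 of 276 wells (9.42%, 6.25 to 13.5) at 24 h and 9 of 330 wells (2.73%, 1.25 to 5.11) at 36 h, and in 0 of 132 wells (0%, 0 to 2.76) at 96 h. Without thinning the shares at 24 h and 36 h were 3.1% and 27.2% for Hoxb2, 64.8% and 41.3% for Zfp42 and 16.2% and 10.2% for Fgf4, in the same direction as after thinning.

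At 36 h, Zfp42 had a UMI in 6 of 41 wells with a Hoxb2 UMI (14.6%, 5.57 to 29.2) and in 59 of 289 without (20.4%, 15.9 to 25.5). The difference was not tested, and the 41 wells leave a wide interval. At 48 h the counts were 3 of 52 (5.77%, 1.21 to 15.9) and 17 of 222 (7.66%, 4.52 to 12). Csn3 had a UMI in 3 of 276 wells (1.09%, 0.225 to 3.14) at 24 h and 32 of 330 wells (9.70%, 6.73 to 13.4) at 36 h, and Prtg in 18 of 276 wells (6.52%, 3.91 to 10.1) and 70 of 330 wells (21.2%, 16.9 to 26). L1td1, by contrast, was still found in 137 of 330 wells (41.5%, 36.1 to 47) at 36 h, against 158 of 276 wells (57.2%, 51.2 to 63.2) at 24 h.

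Summed over the 79 genes that moved down, the median well had 17, 19, 20 and 18 UMIs of 2000 at 0, 6, 12 and 24 h, 9 at 36 h and 6 at 48, 60, 72 and 96 h. From the 10th to the 90th percentile, wells lay between 10 and 28 UMIs at 24 h and between 5 and 16 at 36 h, so the wells of both times overlapped. Summed over the 29 genes that moved up, the median was 1 at 0, 6 and 12 h, 2 at 24 h, 4 at 36 h and 9 at 48 h. The steps from 24 h to 36 h follow from how the genes were chosen.

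**Figure D4:**
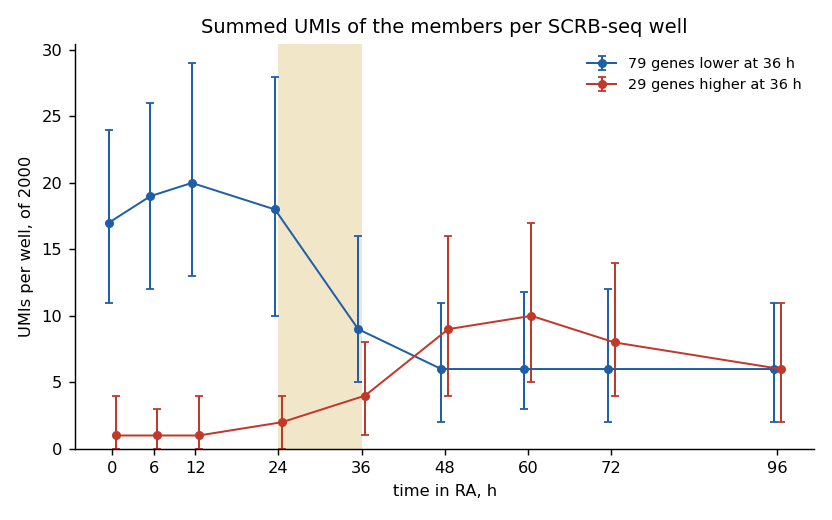
UMIs per SCRB-seq well, of 2000 after thinning (y axis), against time in RA (x axis, h), summed over the 79 genes lower at 36 h (blue) and the 29 genes higher at 36 h (red). Points are medians over 132 to 330 wells and bars span the 10th to 90th percentile of wells. The blue median went from 18 to 9 UMIs and the red from 2 to 4 across the shaded interval.

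The interval was compared with its neighbours by the same rule of 1.5-fold in both assays and 50 UMIs. From 12 h to 24 h, 52 of 3431 genes (1.52%) were higher and 85 (2.48%) lower, and from 36 h to 48 h, 262 of 3859 (6.79%) were higher and 88 (2.28%) lower, beside 0.86% and 2.34% from 24 h to 36 h. The share of genes that moved down was thus much the same in these 3 steps. In the later steps of 12 h, 1.64% (48 h to 60 h) and 0.871% (60 h to 72 h) were lower, and 1.48% and 1.53% were higher. The share that moved up was lower from 24 h to 36 h than in each of these other steps. Neighbouring steps share a library, so a library that stands apart enters both, and the difference between steps was not tested.

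The 108 genes were then looked up in libraries that had not been used to choose them. Between 12 h and 48 h, which bracket the interval, 25 of the 29 genes that moved up were higher at 48 h in both assays (86.2%), beside 32.7% of all 3372 genes, and 68 of the 79 that moved down were lower (86.1%), beside 36.5%. The exceptions among the former were 2410003L11Rik, Degs1, Gpd2 and Pigf. In SMART-seq2, a full-length single-cell method with 89 cells at 24 h, 23 of 28 genes found were at least 1.5-fold higher at 48 h than at 24 h, beside 8.55% of 3335 genes, on the scale of log2(mean RPKM + 1). Of the 79 genes that moved down, 45 were at least 1.5-fold lower, beside 7.65%, and 0 were higher. Mean RPKM at 0, 12, 24 and 48 h was 0.514, 1.93, 13.4 and 125 for Hoxb2. For Zfp42 it was 605, 527, 473 and 51.6, and for Arg1 0.0487, 2.03, 12.2 and 576. All 3 genes moved in the direction of the interval. Lefty1 was the 1 gene of the 29 at least 1.5-fold lower in SMART-seq2.

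At 48 h the study sorted PDGFRA- cells into quartiles of the surface protein CD24, and 1 bulk library was made of each. The paper used CD24 as a neuroectodermal marker at 96 h, and in these 48 h cells as a sign of a post-implantation epiblast-like state. Of the 29 genes that moved up, 15 were at least 1.5-fold higher in the fourth than in the first quartile and 1 was lower (Gm8994), beside 5.58% higher of all 3372 genes. The other 13 were within 1.5-fold. Arg1 had 54.9, 82.2, 116 and 162 CPM from the first to the fourth quartile and Mest 241, 290.4, 449 and 636 CPM. Both genes increased from quartile to quartile. Hoxb2 had 437, 441, 583 and 453 CPM and showed no such order. Of the 79 that moved down, 34 were at least 1.5-fold lower in the fourth quartile, beside 9.79%, and 2 were higher (Ankrd26 and Ccnd1). With the upper pair of quartiles against the lower pair, 18 were lower. Zfp42 had 148, 134, 103 and 56.9 CPM and L1td1 204, 187, 147 and 24.03 CPM. There was 1 library per quartile, and these differences have no replicate check.

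By 96 h the cells had been sorted into ectoderm-like (CD24+ PDGFRA-) and XEN-like (PDGFRA+ CD24-) populations with 2 libraries each, tested by edgeR together with both mESC libraries. Over all 8932 genes tested, 623 (6.97%) were higher in XEN-like cells and 517 (5.79%) lower. Of the 29 genes that moved up at 36 h, 26 were tested. EdgeR called 8 higher in ectoderm-like cells, beside 3.81% of the 3361 genes of the same filter, and 3 higher in XEN-like cells, beside 7.26%. The 8 were Arg1, Car3, Copg2, Fabp5, Hoxb2, Meis2, Mest and Prtg. Hoxb2 had 389.7 and 117 CPM in the ectoderm-like and 5.60 and 4.57 in the XEN-like libraries (edgeR log2 fold change of XEN-like over ectoderm-like -5.49 ± 0.59 (SE), adjusted p = 0.000664), and Mest had 441 and 439 CPM in the ectoderm-like and 27.5 and 18.3 in the XEN-like libraries (edgeR log2 fold change of XEN-like over ectoderm-like -4.15 ± 0.43 (SE), adjusted p = 0.000664). The 3 were Cyp26a1, Degs1 and Rab11a. Cyp26a1 had 32.3 and 21.4 CPM in the ectoderm-like and 271 and 148 in the XEN-like libraries (edgeR log2 fold change of XEN-like over ectoderm-like 3.05 ± 0.34 (SE), adjusted p = 0.000770). The 8 called higher in ectoderm-like cells (30.8% of the 26) were thus well above their background of 3.81%. The 3 called higher in XEN-like cells (11.5%) were few and near theirs of 7.26%, so nothing is read from their number.

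Of the 79 genes that moved down, 76 were tested, and edgeR called 11 (14.5%) higher in the XEN-like libraries, beside 7.26% of all genes of the same filter. It called 3 (3.95%) higher in the ectoderm-like ones, beside 3.81%, a share near the background. Zfp42 was among the 11, with 20.6 and 13.6 CPM in the ectoderm-like and 82.9 and 46.6 in the XEN-like libraries (edgeR log2 fold change of XEN-like over ectoderm-like 2.01 ± 0.34 (SE), adjusted p = 0.00338). L1td1 had 8.91 and 20.1 CPM in the ectoderm-like and 200.4 and 111 in the XEN-like libraries (edgeR log2 fold change of XEN-like over ectoderm-like 3.52 ± 0.41 (SE), adjusted p = 0.000823), and Tbx3 had 14.5 and 11.7 CPM in the ectoderm-like and 84.95 and 27.4 in the XEN-like libraries. Tdh, Csrp2, Laptm5, Mreg, Agtrap, Mybl2, Pld3 and Yipf5 were the others. The 3 were Ldhb, Mdn1 and Ccnd1, the last with 95.7 and 136 CPM in the ectoderm-like and 7.12 and 2.74 in the XEN-like libraries (edgeR log2 fold change of XEN-like over ectoderm-like -4.36 ± 0.43 (SE), adjusted p = 0.000507). Without the first ectoderm-like library 3 of the genes that moved down (3.85%) were called higher in XEN-like cells, beside 1.66%, and without the first XEN-like library 4 (5.13%), beside 3.59%. Of the genes that moved up, 1 was then called higher in XEN-like cells, as without the second XEN-like library.

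**Figure D5:**
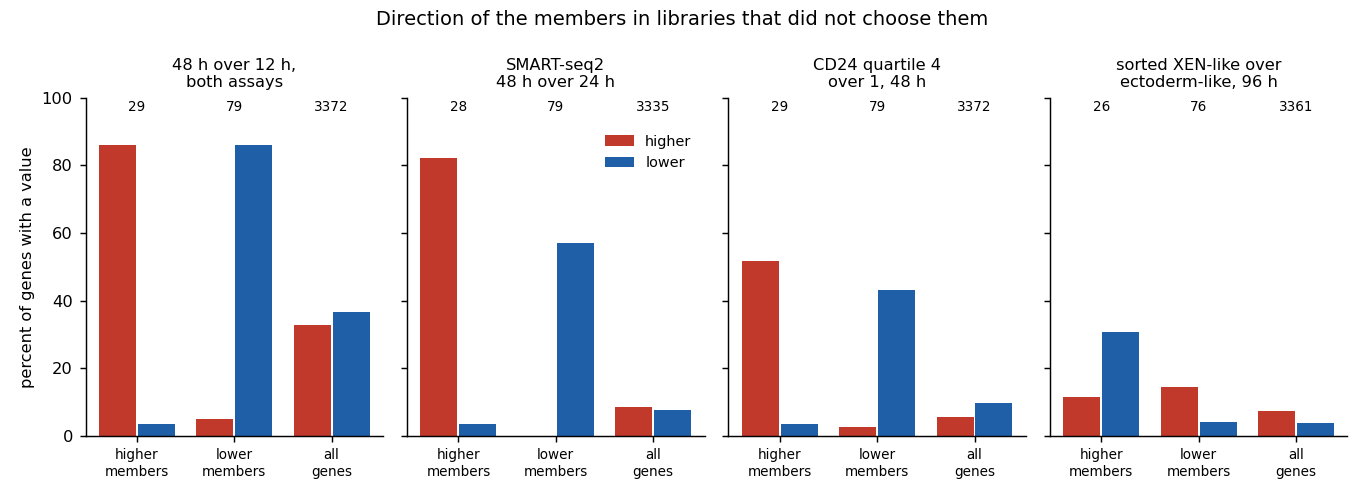
Share of the 29 genes higher at 36 h, the 79 lower at 36 h and all genes of the same filter (x axis, numbers with a value above the bars) that were higher (red) or lower (blue) in 4 comparisons whose libraries had not chosen them (y axis, percent). The bars are counts of genes and carry no error. Members that moved up were higher in 86.2% between 12 h and 48 h and in 82.1% in SMART-seq2, beside 32.7% and 8.55% of all genes.

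Among genes with opposite changes in the assays, the 3 largest were Rbbp5, a subunit of histone methyltransferase complexes, the chemokine Ccl25 and Cmss1. Rbbp5 had 41.9 and 17.6 CPM in bulk and 14.6 and 35.8 in SCRB-seq. Ccl25 had 31.9 and 10.3 in bulk and 18.7 and 39.7 in SCRB-seq. Cmss1 was higher at 36 h in bulk, at 36.4 against 18.9 CPM, and lower in SCRB-seq, at 26.8 against 63.7. They rest on 17 to 92 UMIs per library, and edgeR gave them adjusted p-values of 1.00, 0.998 and 0.983.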

How the data were processed

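Bulk RNA-seq, SCRB-seq and SMART-seq2 were analysed in 25, 9 and 4 samples. For bulk and SCRB-seq the authors aligned reads with BWA 0.7.4 to mouse RefSeq mRNA sequences and deposited the UMI counts per gene, unnormalized, as 1 bulk table and 1 table per plate. For SMART-seq2, mm10, TopHat and Cuffnorm are named in the submitters' processing notes. The deposited values are RPKM per cell, with no counts, so its depth is unknown beyond the minimum of reads per cell that the paper set. Between 0.127% and 0.14% of the SMART-seq2 values at each time were text and were set to 0. Rn45s and 2 genes with text in place of a count were left out.

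Counts of wells with more than 2000 UMIs were summed per plate. The main test was edgeR 4.0.16 (quasi-likelihood, TMM factors, filterByExpr) in R 4.3.3 on 9 bulk and 9 SCRB-seq libraries with time and assay as terms and Benjamini-Hochberg adjustment at 0.05. The study ran no such test. The SE of a log2 fold change was derived from the test, as the size of the change divided by the square root of its F statistic. Ratios add 0.5 UMIs, and RPKM ratios add 1 to the mean. DESeq2 1.42.0, other filters, well weights and left-out libraries were alternatives. In simulated data for this comparison, with 11624 genes, edgeR recovered 2% of genes changed 1.5-fold, 22% at 2-fold, 90% at 4-fold and 98% at 8-fold, with 10 false calls. Sorted libraries were tested in 1 fit of 6 libraries. Other steps used Python 3.11.15, numpy 2.4.6, scipy 1.17.1, pandas 2.3.3, matplotlib 3.10.9 and blastn 2.17.0. The reference positions and promoters are from GRCm38.

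Genes named in the text were the markers Hoxb2, Zfp42 and Fgf4, genes of the lists, the 15 with the largest smaller ratio of both assays in each direction and the 3 with the largest opposite ratios. Other genes were named after their values were seen. The members and lists were chosen with earlier results of these data known. No source used here states that the cultures of each time were separate, so p-values measure the spread between these libraries, which may be technical. The values of 1 of the 108 genes are not reported here.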

Additional observations from a re-analysis of the deposited data

Results flagged for a closer look

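Among genes with at least 50 UMIs in each assay, the change from 24 h to 36 h was past 1.5-fold in opposite directions in bulk and SCRB-seq for 5 that were higher in bulk and 25 that were higher in SCRB-seq, and the 3 with the largest opposite ratios are given here. The difference between the assays was not tested, since each has 1 library per time. The log2 ratio of 36 h over 24 h of Ccl25 was -1.60 in bulk and 1.07 in SCRB-seq. For Cmss1 it was 0.93 in bulk and -1.25 in SCRB-seq, and for Rbbp5 -1.24 in bulk and 1.27 in SCRB-seq.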

How the results depend on the processing

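The number of genes edgeR called from 24 h to 36 h, 10 higher and 0 lower, was not stable. It was 60 and 14 with no filter on low counts, 52 and 25 with only the 4 libraries of 24 h and 36 h, and 22 and 7 with wells of equal weight, an alternative chosen after seeing the data. Wells over 4000 UMIs gave 18 higher, all wells 6, and a fit with no assay block 0. Scaling by library totals gave 1 lower gene and DESeq2 1. Leaving out 1 library gave 0 to 20 higher and 0 to 4 lower, the 4 without bulk at 24 h. The 29 higher and 79 lower genes became 108 and 224 with at least 20 UMIs, 2 and 14 with at least 200, 10 and 12 at 2-fold, and 8 and 39 with wells of equal weight, where 1868 genes were left. With no thinning the share of wells was 27.2% for Hoxb2 at 36 h, 64.8% and 41.3% for Zfp42 at 24 h and 36 h, and 16.2% and 10.2% for Fgf4. With wells thinned to 4000 these shares were 25.3%, 75.2%, 34.7%, 16.8% and 5.79%. With CD24 quartiles 3 and 4 against 1 and 2, 18 of the genes that moved down were lower. Of the genes with opposite changes, the fitted log2 fold change of Ccl25, 0.18, changed sign to -0.22 with wells of equal weight, -0.16 with only the 4 libraries, -0.21 with no assay block and ranged from -1.61 to 1.09 with a library left out. Cmss1 changed sign to 0.33 with wells of equal weight and ranged from -0.98 to 0.78 with a library left out, and Rbbp5 changed to 0.019 with only the 4 libraries and ranged from -0.76 to 0.93. The cause was not tested.

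In the sorted libraries, the labels do not say whether the same replicate number means a shared culture. The correlation of same-numbered deviations was 0.33 over 8932 genes, with 2 pairs, and the main fit has no replicate term. With a replicate block, in a fit that also left out both mESC libraries, 2611 genes were called beside 1140. Of 26 genes that moved up 7 (26.9%) were then higher in XEN-like cells and 11 (42.3%) lower, and of 62 that moved down 18 (29%) were higher and 7 (11.3%) lower, beside 16.6% and 15.7% of all genes of the same filter. With no filter 20 of the genes that moved down were higher. Leaving out 1 library gave 314 to 662 genes, with 1 to 2 of the genes that moved up higher and 3 to 10 of those that moved down higher and 1 to 2 lower. Depth limits the single genes, since 2 of the 29 and 14 of the 79 had at least 200 UMIs in each assay.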
